A study of Rattus norvegicus with 48 samples.

Results

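The 9 genes described here were grouped as genes of the secretory cells that line the airways: Scgb1a1, Scgb3a1, Scgb3a2, Cyp2f4, Cyp2b1, Bpifa1, Bpifb1, Muc5b and Aldh1a1. In these libraries Cyp2b1 did not vary with the others, as described below, and which cells its RNA came from was not tested. The 9 genes were chosen by name, and each had 1 of the 32285 gene identifiers in the count tables. Lung RNA of male Sprague-Dawley rats was sequenced in 48 libraries, in 6 groups of 8, each labelled with its own animal number. Exposed rats had inhaled, as whole animals in a chamber, fracking sand dust (the mineral dust released when sand is handled for hydraulic fracturing) at 30 mg/m3 together with diesel exhaust particles at 1 mg/m3, for 6 h a day on 4 days. Control rats inhaled filtered air on the same schedule, and lungs were collected 1, 7 or 27 days after the last exposure. The groups were thus exposed and air at day 1, exposed and air at day 7, and exposed and air at day 27. All rats were housed in pairs, and RNA came from a piece of lung, so a library mixes airway with far more abundant alveolar tissue.

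Club cells are the main secretory cells of the small airways in rodents. They release secretoglobins into the airway lining fluid, hold cytochromes P450 that oxidise inhaled chemicals, and act as progenitors when the bronchiolar epithelium is injured. BPI fold proteins and the gel-forming mucin Muc5b belong to the secretions of larger airways and glands, which coat the surface and help to clear particles.

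Libraries held 9445675 to 14400317 summed counts (median 12004516.5), and the 9 genes took 0.472% to 1.31% of them (median 0.780%). Values are CPM, a gene's counts scaled to a common library size, with TMM factors over all 48 libraries. They are not divided by transcript length and are compared within a gene. Scgb1a1 supplied 81.4% of the counts of the 9 genes, Cyp2b1 9.18% and Aldh1a1 6.54%. In 4 pairs of libraries, all within a group, counts lay closer together than in the other 164 within-group pairs, at 1.44 to 1.66 times counting noise against 2.40 or more. These were libraries 1 and 4 of exposed day 1, 3 and 6 of exposed day 7, 1 and 4 of air day 7, and 3 and 6 of air day 27. Each pair was averaged to 1 value for means and SD (n = 7 in those groups), while the tests kept 8 libraries a group. The labels do not say whether each library is a separate animal beyond its number. The tests set differences against the spread between libraries, which may not all be spread between animals.

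The labelled tissue was checked against cell markers. The 9 alveolar type 2 markers summed to 16770 to 25790 CPM per library and the 16 ciliated markers with a row to 500.5 to 967.4 CPM. All 5 neuroendocrine markers and 3 of 5 basal cell markers (Krt5, Tp63 and Krt14) averaged under 1 CPM. Muc5ac, the other main airway gel-forming mucin, was at 0 in 45 of 48 libraries. In bulk lung, fewer secretory cells and less RNA per cell cannot be told apart.

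The sequence just upstream of the transcript start is shown for 4 of the genes, from RefSeq (rat build GRCr8), which matched 8 of the 9 genes, all but Muc5b. Scgb1a1, Scgb3a2 and Cyp2f4 are shown because their levels moved together between libraries, and Cyp2b1 because it did not move with them. Cyp2b1 also differed between days, as did Scgb1a1. Each runs 5′ to 3′ in the direction of transcription, from 250 bases before the start to 50 after it. The windows are chr1:215409637-215409936 on the minus strand for Scgb1a1, and, on the plus strand, chr18:36183495-36183794 for Scgb3a2, chr1:91543518-91543817 for Cyp2f4 and chr1:90645869-90646168 for Cyp2b1. Capitals mark matches, on either strand, to CTCAAG (a core bound by the lung factor NKX2-1), TGTTTAC or TGTTTGC (FOXA factors), TTNNGNAA (C/EBP factors) or TATAAA.
Scgb1a1: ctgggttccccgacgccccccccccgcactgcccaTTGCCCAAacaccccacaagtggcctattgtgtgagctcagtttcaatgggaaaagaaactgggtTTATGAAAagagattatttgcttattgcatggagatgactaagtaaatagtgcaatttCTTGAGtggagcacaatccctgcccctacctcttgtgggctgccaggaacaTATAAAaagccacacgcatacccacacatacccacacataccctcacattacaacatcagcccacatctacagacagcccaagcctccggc
Scgb3a2: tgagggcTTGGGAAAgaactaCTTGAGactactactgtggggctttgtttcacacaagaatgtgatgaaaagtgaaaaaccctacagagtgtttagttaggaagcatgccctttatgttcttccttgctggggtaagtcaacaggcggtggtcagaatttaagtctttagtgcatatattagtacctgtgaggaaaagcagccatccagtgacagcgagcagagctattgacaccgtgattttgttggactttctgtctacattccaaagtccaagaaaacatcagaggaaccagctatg
Cyp2f4: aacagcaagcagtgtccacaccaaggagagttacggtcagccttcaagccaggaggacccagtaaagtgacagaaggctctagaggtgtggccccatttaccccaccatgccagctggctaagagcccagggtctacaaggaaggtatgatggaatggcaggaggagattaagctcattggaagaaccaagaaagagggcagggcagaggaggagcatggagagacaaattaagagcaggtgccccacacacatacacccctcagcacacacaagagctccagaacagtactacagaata
Cyp2b1: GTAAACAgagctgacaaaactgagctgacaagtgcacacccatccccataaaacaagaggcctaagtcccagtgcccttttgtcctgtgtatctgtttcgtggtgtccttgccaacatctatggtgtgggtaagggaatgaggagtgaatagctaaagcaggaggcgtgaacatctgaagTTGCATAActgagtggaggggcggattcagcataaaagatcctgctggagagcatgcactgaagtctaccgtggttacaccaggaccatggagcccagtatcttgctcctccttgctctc
Scgb1a1 held CTTGAG, the reverse complement of CTCAAG, starting at position -92 from the start, C/EBP matches at -215 and -150 and TATAAA at -41. Scgb3a2 held CTTGAG at -229 and a C/EBP match at -243, Cyp2b1 a FOXA match at -250 and a C/EBP match at -70, and Cyp2f4 held none of these letters in its window. Over 33469 RefSeq promoters of the same length, CTCAAG was found in 15.8%, TGTTTAC in 3.78%, TGTTTGC in 4.88%, TTNNGNAA in 41.3% and TATAAA in 14.2%. Of the other genes, Scgb3a1 and Bpifa1 also held CTTGAG, both at -231, and there the first of 2 C/EBP matches of Bpifa1, at -230, overlaps it. None of the matches was tested for binding.

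The first comparison asked what the dust and diesel exposure did to these genes at day 1. None of the 9 was called by edgeR's quasi-likelihood test at an adjusted p under 0.05, where 0.0279% of the 14314 genes tested were called. At an unadjusted p under 0.05 there were 2 of 9, against 8.67% of all genes. DESeq2 called 1 of the 9 and limma-voom 0, where they called 42 and 4 of all genes tested. The median log2 fold change of the 9 genes was -0.08, and that of all genes tested 0.00.

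Scgb1a1, the club cell secretory protein, had the smallest p of the 9. In exposed lungs at day 1 its lowest, median and highest values were 4402, 4921 and 5671 CPM, against 5039, 6637 and 7934 CPM in air lungs. The air mean stood above all 8 exposed libraries, and 4 of these lay below the lowest air library, while the groups still overlapped. The mean was 5062 ± 470 CPM (SD, n = 7) in exposed lungs and 6573 ± 1098 CPM (SD, n = 8) in air lungs. The log2 fold change of -0.39 ± 0.089 (SE) had an edgeR p of 0.000353, rank 21 of the 14314 genes, and an adjusted p of 0.226. DESeq2, the tool that did call a gene, gave Scgb1a1 a log2 fold change of -0.39 with an adjusted p of 0.0130. With the ciliated marker level as a covariate the edgeR adjusted p was 0.0280. Single left-out libraries aside, these were the only 2 of 11 other settings that passed. Over the 11 the adjusted p ran up to 0.418. Over the 16 fits that left out 1 library the edgeR adjusted p ran from 0.130 to 0.442.

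Scgb3a2, a secretoglobin made by club cells and their precursors, ran lower on the same side at day 1. It had 124.8, 140.9 and 195.5 CPM in exposed lungs (lowest, median, highest), against 149.2, 178.7 and 225.2 CPM in air lungs. Of the 8 exposed libraries, 7 lay below the air mean and 5 below the lowest air library. Its log2 fold change was -0.29 ± 0.10, with an edgeR adjusted p of 0.447, and 0.0279 with the ciliated level as a covariate. That was the only 1 of the 11 other settings in which Scgb3a2 passed, and the adjusted p ran up to 0.655. Scgb3a1, a secretoglobin of larger airways, was scattered: 0.780, 11.6 and 23.9 CPM in exposed lungs, against 1.64, 5.69 and 19.8 CPM in air lungs, with a log2 difference of 0.66 ± 0.59 between the groups (edgeR adjusted p = 0.805).

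Of the cytochromes P450, Cyp2f4, which oxidises naphthalene-like compounds in the club cells of rodents, had 19.3, 33.4 and 49.0 CPM in exposed lungs at day 1, against 30.1, 46.5 and 68.8 CPM in air lungs. Its log2 fold change was -0.39 ± 0.19 (edgeR adjusted p = 0.591), and 7 of 8 exposed libraries lay below the air mean. Cyp2b1, the main phenobarbital-type P450 of rat lung, averaged 644 ± 37.2 CPM in exposed lungs (SD, n = 7) and 634 ± 72.3 CPM in air lungs (SD, n = 8), which left a log2 difference of 0.01 ± 0.062. Aldh1a1, which oxidises retinaldehyde to retinoic acid and also reactive aldehydes, had at day 1 a log2 difference of -0.08 ± 0.049 (edgeR adjusted p = 0.695). Counts of Cyp2b1 and Aldh1a1 were not whole in 48 of 48 libraries at a tolerance of 1e-06. Reads were therefore split between these and other identifiers, and the close copy Cyp2b2 averaged 0.618 CPM, so the levels of these 2 genes are uncertain by that split. The counts of the other 7 genes were whole in all libraries.

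The genes of larger airways had wide errors at day 1 and did not share a sign. Bpifa1, a BPI fold protein of airway secretions, had 0.468, 4.13 and 7.07 CPM in exposed lungs, against 0.493, 1.68 and 6.42 CPM in air lungs, and its log2 difference was 0.76 ± 0.54 (edgeR adjusted p = 0.732). Muc5b had 4.87, 13.2 and 15.5 CPM in exposed lungs, against 3.54, 7.86 and 13.4 CPM in air lungs, and its log2 difference was 0.39 ± 0.33 (edgeR adjusted p = 0.780). In 4 exposed libraries Muc5b was above the highest air library. Bpifb1, another BPI fold protein, had a log2 fold change of -0.10 ± 0.32. None of these differences was larger than the spread between libraries. Exposed and air libraries overlapped for all 9 genes at each day. Of all genes tested, the groups did not overlap, with exposed lower, in 0.0699%, 0.0351% and 0.225% at days 1, 7 and 27, and, with exposed higher, in 0.00699%, 0.00701% and 0.218%.

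**Figure D1:**
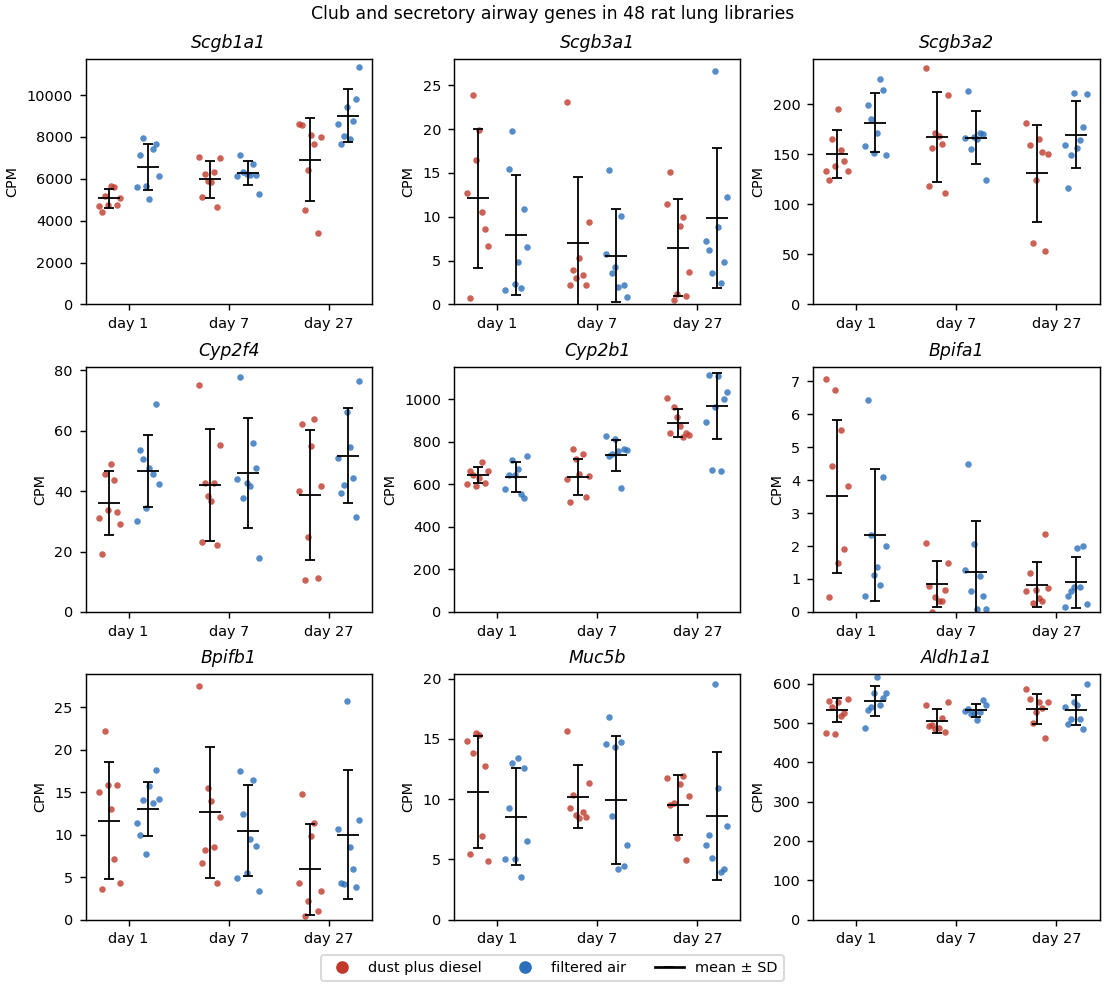
Level of each gene in CPM (y axis, from 0) in the 48 libraries, by day, with exposed libraries (red) left of air libraries (blue); points are libraries, and bars are the mean ± SD with close pairs averaged (n = 7 or 8), ending at 0 where they would run below it. Exposed and air libraries overlap for every gene at every day, and at day 1 the exposed libraries of Scgb1a1 sit between 4402 and 5671 CPM, all below the air mean of 6573 CPM.

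At day 7, edgeR called 0 of the 8 genes tested, and 0% of 14259 genes. Bpifa1 was left out by the filter on low counts. DESeq2 and limma-voom also called 0 of the 8, where they called 18 and 0 of all genes tested. By edgeR, 1 of 8 had an unadjusted p under 0.05, against 8.47% of all genes. That gene was Cyp2b1, with 515.8, 643.9 and 764.1 CPM in exposed lungs, against 583.3, 757.7 and 827.8 CPM in air lungs. Its log2 fold change was -0.20 ± 0.083 (unadjusted edgeR p of 0.0287, edgeR adjusted p = 0.548), with 6 of 8 exposed libraries below the air mean.

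Scgb1a1 at day 7 had 4665, 6056 and 7048 CPM in exposed lungs, against 5257, 6212 and 7127 CPM in air lungs. Its log2 fold change was -0.06 ± 0.078 (edgeR adjusted p = 0.884). Scgb3a2 averaged 168 ± 45.1 CPM in exposed lungs and 167 ± 26.2 CPM in air lungs (SD, n = 7 each). Cyp2f4 had a log2 fold change of -0.11 ± 0.28, Bpifb1 of 0.31 ± 0.40, Scgb3a1 of 0.28 ± 0.62, Muc5b of -0.04 ± 0.29 and Aldh1a1 of -0.07 ± 0.035. For Aldh1a1, 5 exposed libraries lay below the lowest air library, and the edgeR adjusted p was 0.607. Bpifa1 had 0 counts in exposed library 3, which allows up to 3 counts or 0.268 CPM, and ran up to 2.09 CPM in exposed lungs, against 0.0807 to 4.49 CPM in air lungs.

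At day 27, edgeR again called 0 of the 8 genes tested, here against 5.52% of the 14192 genes tested. DESeq2 and limma-voom called 0 of the 8, where they called 1609 and 753 of all genes tested. By edgeR, 1 of 8 had an unadjusted p under 0.05, against 26.7% of all genes. The median log2 fold change of the 8 genes was -0.37, with 6 of 8 below 0, while the median of all genes was -0.01 and 52% of them lay below 0. The filter again left out Bpifa1, which had 0.271, 0.650 and 2.36 CPM in exposed lungs, against 0.158, 0.698 and 2.01 CPM in air lungs.

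Scgb1a1 at day 27 had 3389, 7817 and 8628 CPM in exposed lungs, against 7678, 8688 and 11322 CPM in air lungs. The air mean again stood above all 8 exposed libraries, 4 lay below the lowest air library and 5 air libraries lay above the highest exposed one. The mean was 6905 ± 1977 CPM in exposed lungs (SD, n = 8) and 9021 ± 1274 CPM in air lungs (SD, n = 7). The log2 fold change was -0.37 ± 0.17 (unadjusted edgeR p of 0.0408, edgeR adjusted p = 0.169). It was called with all 48 libraries in 1 fit (edgeR adjusted p = 0.0361), a fit that called 2227 genes. It was also called with the ciliated level as a covariate (edgeR adjusted p = 0.0437), a fit that called 618 genes. Single left-out libraries aside, these were the only 2 of 12 other settings that passed. Over the 12 the adjusted p ran up to 0.590.

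The low end of the exposed day 27 group rested on 2 libraries. Exposed libraries 3 and 7 of day 27 had the lowest ciliated marker levels of the 48, with a mean log2 CPM of 3.34 and 3.13 against 3.59 in the next lowest library. Their Scgb1a1 was 4503 and 3389 CPM, against 6397 to 8628 CPM in the other 6 exposed libraries. Scgb3a2 was 61.1 and 53.3 CPM there, against 124.9 to 181.9 CPM in the other 6, and Cyp2f4 was 10.7 and 11.3 CPM against 24.7 to 64.0 CPM. Bpifb1 was 0.452 and 0.961 CPM, against 2.17 to 14.9 CPM. Cyp2b1, at 964.9 and 843.6 CPM, lay within the 824.3 to 1008 CPM of the other 6.

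Without these 2 libraries, a choice made after their values were seen, the log2 fold changes of 5 genes at day 27 were smaller in size and those of Muc5b, Aldh1a1 and Cyp2b1 were not. Scgb1a1, Scgb3a1, Scgb3a2, Cyp2f4, Bpifb1 and Aldh1a1 had their 2 lowest exposed values of day 27 in these libraries. Leaving these libraries out raised the exposed level of those genes by construction, so the smaller differences are no separate test. Scgb1a1 had -0.17 (edgeR adjusted p = 0.304) in place of -0.37, Scgb3a2 -0.11 in place of -0.36, Cyp2f4 -0.07 in place of -0.38 and Bpifb1 -0.27 in place of -0.65. EdgeR then called 0 genes of the whole table at day 27, against 783 with all 16 libraries, and that fit had fewer exposed libraries. Scgb3a1 had -0.07 without the 2 libraries and -0.45 ± 0.63 with them, and Muc5b had 0.36 without them and 0.25 ± 0.30 with them. Aldh1a1 had 0.07 without them and 0.02 ± 0.051 with them, and Cyp2b1 -0.07 without them and -0.06 ± 0.10 with them. The part of airway content in these differences was not tested beyond these values.

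**Figure D2:**
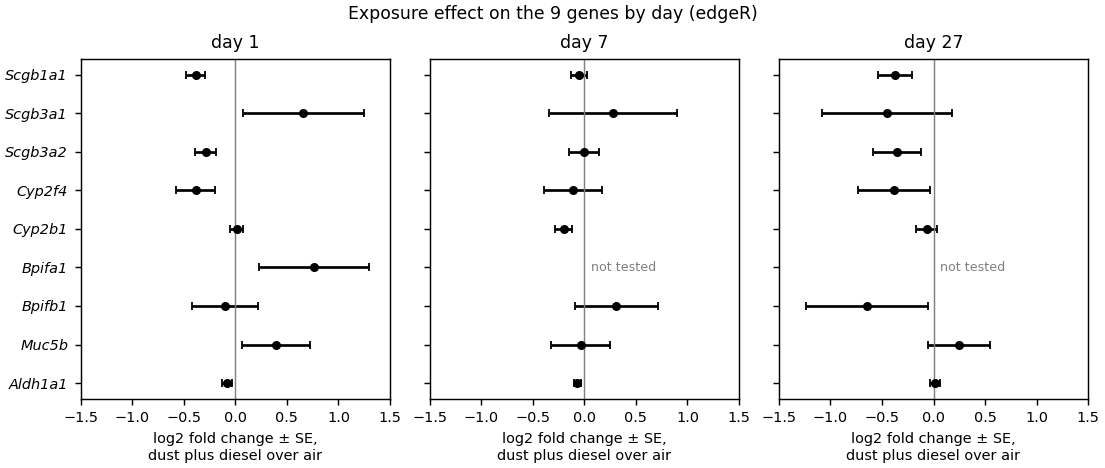
Log2 fold change of exposed over air lungs (x axis) for each gene at days 1, 7 and 27, with bars of 1 SE from edgeR; Bpifa1 was not tested at days 7 and 27. Scgb1a1, Scgb3a2 and Cyp2f4 lie at -0.29 to -0.39 at days 1 and 27 and at -0.11 to 0.00 at day 7, and no gene passed an adjusted p of 0.05.

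Whether the exposure effect differed between days was tested by contrasts in 1 fit of all 48 libraries, in which all 9 genes were tested. EdgeR called none of the 9 in any of the 3 contrasts, where 0% (day 7 minus day 1), 0.498% (day 27 minus day 1) and 0.0202% (day 27 minus day 7) of 14852 genes were called. None of the 9 had an unadjusted p under 0.05 in these contrasts, against 7.5%, 14.6% and 14.9% of all genes in the same order. DESeq2 and limma-voom called 0 of the 9 as well, where DESeq2 called 11, 326 and 77 of 14852 genes. The effect on Scgb1a1 was 0.33 ± 0.18 log2 units higher at day 7 than at day 1 (unadjusted edgeR p of 0.0669, edgeR adjusted p = 0.690). At day 27 it was 0.31 ± 0.18 lower than at day 7, a contrast of -0.31 with an edgeR adjusted p of 0.396, and it differed from day 1 by 0.02 ± 0.18. The days at which Scgb1a1 stood lower are therefore not shown to differ from day 7.

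Larger differences appeared between days, in exposed and in air lungs alike. Day and library preparation cannot be told apart here, since each day has its own count table and the labels give no batch. Scgb1a1 was higher at day 27 than at day 1 in exposed lungs, with a log2 difference of 0.46 ± 0.12 (edgeR adjusted p = 0.00968). The same contrast in air lungs was 0.44 ± 0.12 (adjusted p = 0.00977). Means were 5062 ± 470, 5974 ± 886 and 6905 ± 1977 CPM in exposed lungs at days 1, 7 and 27 (SD, n = 7, 7 and 8). In air lungs they were 6573 ± 1098, 6277 ± 573 and 9021 ± 1274 CPM (SD, n = 8, 7 and 7). Between day 7 and day 27 the log2 difference of Scgb1a1 was 0.20 ± 0.12 in exposed lungs (adjusted p = 0.297) and 0.51 ± 0.12 in air lungs (adjusted p = 0.00111). Without exposed libraries 3 and 7 of day 27 the exposed contrast was 0.39 (edgeR adjusted p = 0.00442). These libraries held the lowest exposed Scgb1a1 values of day 27 and were left out after being seen. Leaving them out raised the contrast by construction, so it is no separate test.

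Cyp2b1 was higher at day 27 than at day 1 or day 7 in both groups. Its means were 644 ± 37.2, 635 ± 86.4 and 889 ± 67.9 CPM at days 1, 7 and 27 in exposed lungs, and 634 ± 72.3, 737 ± 73.2 and 968 ± 155 CPM in air lungs. From day 1 to day 27 the log2 difference was 0.48 ± 0.088 in exposed lungs (edgeR adjusted p = 0.000143) and 0.55 ± 0.088 in air lungs (adjusted p = 1.22e-05). From day 7 to day 27 it was 0.45 ± 0.088 in exposed lungs (adjusted p = 0.000481) and 0.32 ± 0.088 in air lungs (adjusted p = 0.00383). In air lungs the log2 difference between day 7 and day 1, 0.24 ± 0.088, did not pass (adjusted p = 0.0780). In exposed lungs it was 0.02 ± 0.088 (edgeR adjusted p = 0.906).

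Bpifa1 was lower at the later days in exposed lungs. Its values there were 0.468 to 7.07 CPM at day 1, 0 to 2.09 CPM at day 7 and 0.271 to 2.36 CPM at day 27, so the ranges overlapped. The log2 difference from day 1 was -2.35 ± 0.61 at day 7 (edgeR adjusted p = 0.0328) and -2.22 ± 0.61 at day 27 (adjusted p = 0.0107). In air lungs it was -0.89 ± 0.59 at day 7 (adjusted p = 0.351) and -1.40 ± 0.61 at day 27 (adjusted p = 0.105). The difference between exposed and air lungs in these changes did not pass (edgeR adjusted p = 0.716 for day 7 and 0.711 for day 27). With each close pair of libraries summed to 1, the day 7 contrast did not pass: the log2 difference was -2.09 (edgeR adjusted p = 0.0954). That contrast also missed the threshold without exposed library 1, 4, 6 or 8 of day 1 or exposed library 3, 4, 6 or 7 of day 7, with adjusted p up to 0.0751.

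Read against all genes, the day contrasts called 1 of 9 genes at day 7 minus day 1, 3 of 9 at day 27 minus day 1 and 1 of 9 at day 27 minus day 7 in exposed lungs, where 2.14%, 11.5% and 12.1% of 14852 genes were called. In air lungs they called 0, 2 and 2 of 9 genes, where 8.32%, 17.6% and 39.7% were called. For the air contrast of day 7 minus day 1, with none called by edgeR, 1 of 9 had an unadjusted p under 0.05, against 26% of all genes. DESeq2 and limma-voom also called 0 of the 9 there, where DESeq2 called 1471 of 14852 genes. Scgb3a1, Scgb3a2, Cyp2f4, Bpifb1, Muc5b and Aldh1a1 passed in none of the day contrasts of this fit. Aldh1a1 varied least, from 461.0 to 616.4 CPM over the 48 libraries.

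**Figure D3:**
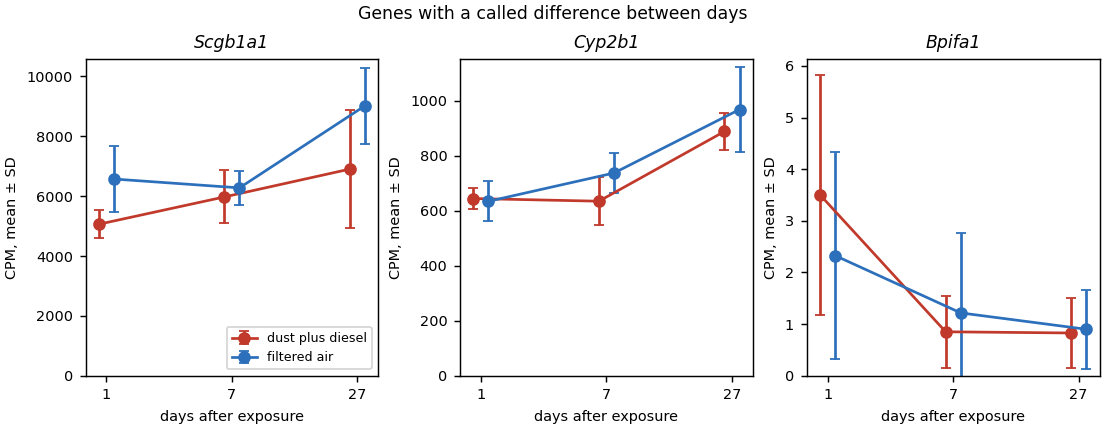
Mean level in CPM (y axis, from 0) with bars of 1 SD at days 1, 7 and 27 (evenly spaced on the x axis) for the 3 genes with a called difference between days, in exposed (red) and air (blue) lungs, with close pairs averaged (n = 7 or 8). Cyp2b1 ends at 889 CPM in exposed and 968 CPM in air lungs at day 27, and Bpifa1 has its highest mean, 3.50 CPM, in exposed lungs at day 1.

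The other genes of the airway secretory system were taken from lists that name club cell, goblet, gland, ciliated and regulator genes. Of 24 other club cell genes, 18, 19 and 19 were tested at days 1, 7 and 27 against air, and none was called at any of the 3 days. Their median log2 fold changes were -0.07, 0.05 and -0.07. Lypd2, a small surface protein found in secretory epithelium, came nearest, with a log2 fold change of -0.51 ± 0.12 at day 1 (edgeR adjusted p = 0.226) and -0.69 ± 0.21 at day 27 (adjusted p = 0.0546). Pigr, the receptor that carries antibodies into secretions, had 0.25 ± 0.082 at day 1 (adjusted p = 0.403). At day 7 Cyp4b1, a lung P450, had -0.14 ± 0.042 (adjusted p = 0.368) and the glutathione transferase Gstm1 had 0.23 ± 0.081 (adjusted p = 0.466).

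Several of those club cell genes differed between days. At day 27 against day 1, 5 of the 20 tested were called higher and 0 lower in exposed lungs, where 5.87% of all genes were called higher, and 6 of 20 higher and 0 lower in air lungs, where 9.15% were. Cyp4b1 had a log2 difference of 0.75 ± 0.064 in exposed lungs (edgeR adjusted p = 7.82e-12) and 0.71 ± 0.064 in air lungs (adjusted p = 1.67e-11). Fmo2, the main flavin monooxygenase of lung, had 1.03 ± 0.15 in exposed lungs (adjusted p = 2.90e-06) and 0.77 ± 0.15 in air lungs (adjusted p = 0.000254). The aldehyde dehydrogenase Aldh3a1 had 0.90 ± 0.18 in exposed lungs (adjusted p = 0.000436) and 0.85 ± 0.18 in air lungs (adjusted p = 0.000672). Sult1a1, a phenol sulfotransferase, had 0.43 ± 0.12 in exposed lungs (adjusted p = 0.00915) and 0.62 ± 0.12 in air lungs (adjusted p = 0.000166). Aldh1a3 was called in exposed lungs, at 0.23 ± 0.071, and Pigr and Lypd2 in air lungs, at 0.31 ± 0.082 and 0.44 ± 0.15. Markers of other cell types differed at day 27 against day 1 as well. All 6 alveolar type 1 markers were above 0 in each group, 2 called higher in exposed lungs and 4 in air lungs. Of the 9 type 2 markers, 2 were called higher in exposed lungs and 3 in air lungs. All 6 smooth muscle markers were below 0 in each group, 3 called lower in each. Their part in the club cell gene differences was not tested.

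Of the 17 goblet and mucus genes, 9, 9 and 8 were tested at days 1, 7 and 27 and none was called against air. Of the 14 airway secretory regulators, all were tested and none was called. The 2 with the smallest p at day 1 were Creb3l1, with -0.29 ± 0.097 on the log2 scale (edgeR adjusted p = 0.403), and Hes1, a Notch target, with -0.16 ± 0.062 (adjusted p = 0.480). At day 7 they were Foxa2, a factor of airway epithelium, at -0.19 ± 0.088 (adjusted p = 0.584), and Ehf, an epithelial ETS factor, at -0.14 ± 0.083 (adjusted p = 0.655). At day 27 they were Ehf, at 0.22 ± 0.081 (adjusted p = 0.103), and Hes1, at -0.25 ± 0.100 (adjusted p = 0.129). Of 11 gland and large airway genes, 5, 5 and 6 were tested, and 1 was called: Lyz2, a lysozyme also made by macrophages and alveolar type 2 cells, at -0.24 ± 0.065 at day 27 (adjusted p = 0.0432). At that day 5.52% of all genes were called. Lyz2 was not called without exposed libraries 3 and 7 of that day, when edgeR called 0 genes. Of 14 other secretoglobins and BPI fold proteins, 13 averaged under 1 CPM, and Bpifa5, the 1 tested, was not called.

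Of the 18 ciliated markers, 15 were tested at each day, and 1 was called against air: Tppp3, a tubulin-binding protein, at -0.28 ± 0.074 at day 27 (edgeR adjusted p = 0.0373). At that day 5.52% of all genes were called, a share that 1 of 15 is near, and Tppp3 was not called without exposed libraries 3 and 7. The medians of the list were 0.05, 0.02 and -0.0039 at days 1, 7 and 27. Summed ciliated levels ran from 633.7 to 800.9 CPM in exposed and 624.5 to 798.1 CPM in air lungs at day 1, 674.0 to 903.9 and 710.3 to 881.1 CPM at day 7, and 500.5 to 871.9 and 696.5 to 967.4 CPM at day 27. At day 1, where Scgb1a1 and Scgb3a2 were lower in exposed lungs by the unadjusted test, the median ciliated sum was 692.8 CPM in exposed and 733.2 CPM in air lungs. Tppp3 alone averaged 433.5 CPM over the 48 libraries, a large part of these sums. Its log2 fold change at day 1 was -0.13 ± 0.073, while 10 of the 15 tested markers were above 0 and 5 below, none called. Whether airway content differed between the groups at day 1 was not tested.

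How the 9 genes varied among themselves was measured between libraries of the same group, as deviations of log2 CPM from the group mean over 44 units (48 libraries with close pairs averaged). The p-values come from a two-sided permutation within groups with 100000 resamples, adjusted by Benjamini-Hochberg over the 63 relations computed. Of the 36 pairs of genes, 22 had an adjusted p under 0.05, all with a positive r, from 0.32 to 0.92. Among the 7 genes other than Cyp2b1 and Bpifa1, 20 of 21 pairs passed, and among the pairs with Cyp2b1 0 of 8 passed (r from -0.10 to 0.21). Of the 22 pairs, 17 had a positive r within each of the 3 days, and 21 passed by Spearman's rho as well. How many pairs of other genes would pass this test was not computed, so these counts are not shown to be particular to the 9 genes.

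The closest pair was Scgb1a1 and Scgb3a2, with Pearson's r of 0.92 and Spearman's rho of 0.90 (permutation p = 1e-05 each, the smallest that 100000 resamples can give, adjusted p = 4.5e-05 and 4.2e-05). Its r was 0.74, 0.96 and 0.97 within days 1, 7 and 27, 0.87 without the 2 units farthest from the median, and 0.84 without exposed libraries 3 and 7 of day 27. Scgb3a2 and Cyp2f4 had r of 0.89 (rho 0.86), Scgb1a1 and Cyp2f4 0.83 (rho 0.82), and Cyp2f4 and Bpifb1 0.86 (rho 0.78). Each had a permutation p of 1e-05 for both measures. Muc5b was closest to Scgb3a1, with r of 0.74 (rho 0.75). Bpifa1 passed with Scgb3a1 (r = 0.52, rho 0.50, adjusted p = 0.00135) and Muc5b (r = 0.40, rho 0.38, adjusted p = 0.0403), and its r with both was negative within day 27 (-0.11 and -0.22). Aldh1a1 was tied to Scgb1a1 with r of 0.50 (rho 0.41, permutation adjusted p = 0.00672), and with 0.26 (permutation adjusted p = 0.226) without exposed libraries 3 and 7 of day 27.

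**Figure D4:**
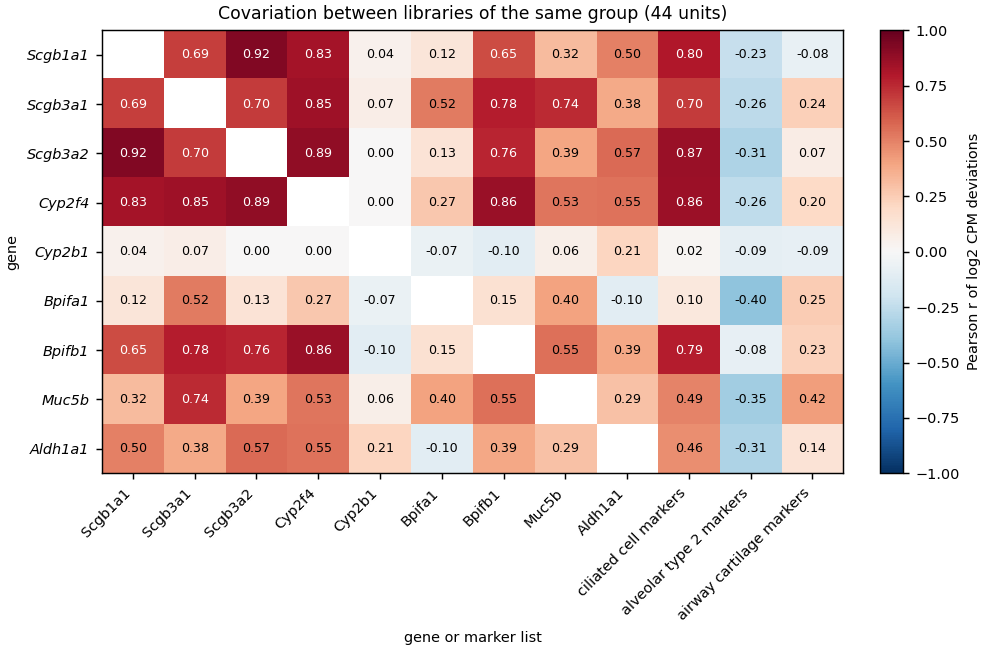
Pearson's r of log2 CPM deviations from the group means over 44 units, for each pair of the 9 genes and for each gene against the mean level of 3 marker lists. Scgb1a1, Scgb3a2, Cyp2f4, Scgb3a1 and Bpifb1 form a block of r from 0.65 to 0.92, and Cyp2b1 lies between -0.10 and 0.21 with every other gene.

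The same genes followed the ciliated marker level of the library. Scgb3a2 had r of 0.87 with it, Cyp2f4 0.86, Scgb1a1 0.80, Bpifb1 0.79 and Scgb3a1 0.70, each with a permutation p of 1e-05 and an adjusted p of 4.5e-05. Their rho values were 0.84, 0.85, 0.76, 0.71 and 0.69 in that order. Without the 2 farthest units r was 0.80, 0.80, 0.70, 0.72 and 0.71. Muc5b (r = 0.49, rho 0.45, adjusted p = 0.00126) and Aldh1a1 (r = 0.46, rho 0.40, adjusted p = 0.0119) also passed. Aldh1a1 had r of -0.22, 0.51 and 0.81 within days 1, 7 and 27, and 0.25 (adjusted p = 0.226) without exposed libraries 3 and 7 of day 27. Cyp2b1 (r = 0.02, rho -0.19, adjusted p = 0.935) and Bpifa1 (r = 0.10, rho 0.11, adjusted p = 0.615) did not pass. With alveolar type 2 markers, r of the 9 genes ran from -0.40 to -0.08. Bpifa1 (-0.40, adjusted p = 0.0326) and Muc5b (-0.35, adjusted p = 0.0462) passed there. Without exposed libraries 3 and 7 of day 27, a choice made after their values were seen, both still passed. Scgb3a2 (-0.52, permutation adjusted p = 0.00454), Scgb1a1 (-0.41, 0.0301) and Aldh1a1 (-0.37, 0.0301) then passed as well. Scgb3a1, Cyp2f4, Bpifb1 and Cyp2b1 passed in neither case. All of these levels come from the same libraries and scaling, and how much airway the piece of lung held was not tested.

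**Figure D5:**
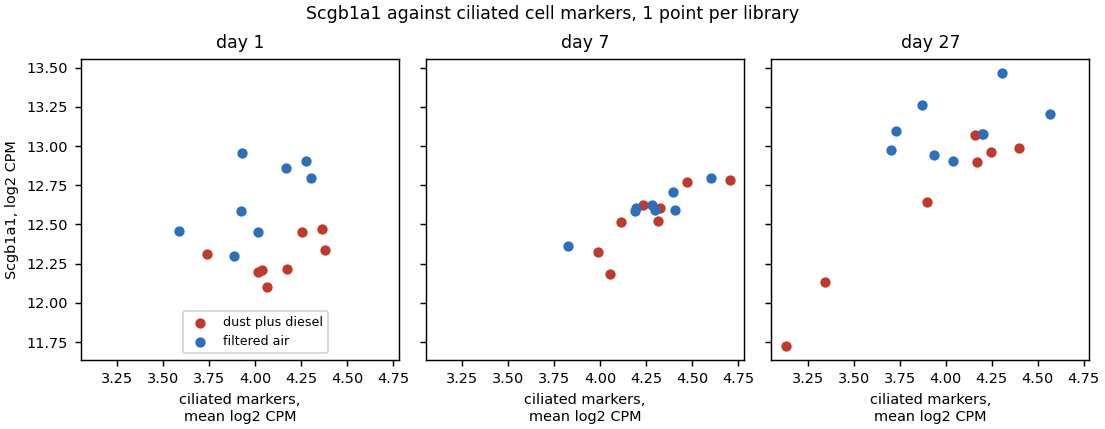
Scgb1a1 (y axis, log2 CPM) against the mean log2 CPM of ciliated markers (x axis) at days 1, 7 and 27, 1 point per library, exposed in red and air in blue. Exposed libraries 3 and 7 of day 27 sit alone at the lower left, at ciliated levels of 3.34 and 3.13. At day 1 all exposed points lie below the air mean of Scgb1a1, and the ciliated ranges overlap.

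The genes whose deviations were most like the mean of the 9 (each scaled to an SD of 1) were ranked over 12809 other genes with a mean of at least 1 CPM and a symbol, over the same 44 units. The nearest was Cyp2a3 (r = 0.88), a P450 of rat airway and nasal epithelium, followed by Mlf1 (0.88), Spa17 (0.86), Ccdc113 (0.86), Dnali1 (0.86), Ccdc19 (0.85), Rsph1 (0.85) and Ccdc153 (0.85). Rsph1, a radial spoke protein, and Dnali1, an axonemal dynein chain, are parts of the cilium. Rsph1 is also among the ciliated markers used above, so the ranking and that list share it. For comparison, the 9 genes themselves ran from 0.20 (Cyp2b1) to 0.93 (Cyp2f4) with a mean of which each is a part.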

How the data were processed

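Per the labels' protocols, polyadenylated RNA from a piece of lung was made into stranded libraries. Tools listed in the submitters' processing notes, without settings, were STAR 2.6.1d, Salmon 1.10.1, bcl2fastq 2.19, Trim Galore 0.6.7 and cutadapt 3.4, with the build Rnor_6.0. The authors deposited expected counts per gene (estimated counts that need not be whole), not normalized, in 3 tables, 1 per day. On average 5.58% of values per library were not whole, and all were rounded. Of the 32285 identifiers, 4671 share a gene name, and in the lists such a name was read from its most abundant identifier.

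Each day was tested over its whole table with edgeR 4.0.16 in R 4.3.3 (TMM, filterByExpr, robust quasi-likelihood F test, Benjamini-Hochberg, threshold 0.05). Contrasts between days came from 1 fit of all 48 libraries. An SE is the log2 fold change divided by the square root of F. Every adjusted p printed for a fold change is from edgeR over all genes tested unless another tool is named. CPM and log2 CPM (prior count 2) were computed from the rounded counts. Correlations used numpy 2.4.6. Libraries are numbered 1 to 8 within a group by accession, and no number pairs libraries. Close pairs were found from squared count differences of genes averaging 20 counts or more.

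The alternatives were RLE size factors, no filter, a minimum mean of 1 CPM, limma-voom (limma 3.58.1), DESeq2 1.42.0, close pairs summed or averaged, the ciliated marker level as a covariate and each library left out. For the exposure tests they also included all 48 libraries in 1 fit, the log2 total count as a covariate and 1 surrogate variable (sva 3.50.0). The fits and the permutation were checked on simulated data. The genes and lists were chosen with earlier results of these data known. The text names all 9 genes, called genes of each list or otherwise up to 2 with the smallest p, and the 8 genes most like the mean of the 9, leaving out ribosomal and provisional names. A result that this rule would name is not reported here. Day 27 without exposed libraries 3 and 7, and leaving out libraries in the contrasts between days, were added after the data were seen.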

Additional observations from a re-analysis of the deposited data

Results flagged for a closer look

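In 8 of 54 gene and group combinations 1 library lay far from the other 7 of its group by Dixon's test on CPM at the 95% level. Chance alone meets that level in about 1 of 20 groups only where values are normally distributed. CPM were not checked for that, so the 8 are not read as more than chance would give. Scgb3a1 was 23.14 CPM in exposed library 1 of day 7, where the next was 9.38 CPM, and Muc5b was 15.66 CPM in the same library, where the next was 11.33 CPM. Air library 4 of day 27 held 3 of the 8: Scgb3a1 at 26.64 CPM (next 12.23 CPM), Bpifb1 at 25.78 CPM (next 11.77 CPM) and Muc5b at 19.55 CPM (next 10.88 CPM). Bpifa1 was 2.358 CPM in exposed library 7 of day 27 (next 1.194 CPM) and 4.493 CPM in air library 2 of day 7 (next 2.06 CPM). Cyp2b1 was 583.3 CPM in air library 6 of day 7, below the next at 735.2 CPM.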

How the results depend on the processing

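Counts are of the 9 genes called. For exposed against air at day 1 there were 0 with edgeR, 1 with DESeq2 and 2 with the ciliated covariate. Those fits called 4, 42 and 14 of 14314 genes. At day 27 there were 0 with edgeR, 1 with the ciliated covariate and 1 with all 48 libraries in 1 fit. Those fits called 783 and 618 of 14192 genes and 2227 of 14852. In air lungs the ciliated covariate gave 4 called at day 7 minus day 1 and 5 at day 27 minus day 7, in place of 0 and 2, in fits that called 626 and 5467 of 14852 genes. In exposed lungs at day 27 minus day 7 it gave 2 (1006 of 14852 genes), in place of 1 (1790 of 14852). Leaving out exposed libraries 3 and 7 of day 27, which raised the day 27 level of Scgb1a1 by construction, gave 3 there (1930 of 14959 genes). In exposed lungs at day 7 minus day 1, 0 were called without a filter, with close pairs summed and with them averaged, in place of 1. The fits with pairs summed and averaged called 98 of 14878 and 95 of 14864 genes, against 318 of 14852. For day contrasts without a filter or with 1 library left out, the counts over all genes are not given. Leaving out 1 library gave 0 to 1 called there and for day 7 minus day 1 in air lungs, where Cyp2b1 passed (0.28, edgeR adjusted p = 0.0451) without air library 6 of day 7.

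Signs turned only where a difference was not called. With the total count as a covariate, Cyp2b1 had -0.019 and Bpifb1 0.16 at day 1 and Muc5b 0.0057 at day 7. At day 7 Scgb3a2 had 0.0016 with a surrogate variable, 0.0077 with pairs summed and 0.0082 with pairs averaged, and Muc5b had 0.14 with limma-voom, 0.013, 0.037 and 0.052. The Scgb1a1 effect at day 27 minus day 1 was -0.052 with limma-voom, -0.0065 with pairs summed and -0.0086 with pairs averaged. Leaving out 1 library gave -0.019 to 0.046 for Cyp2b1 and -0.28 to 0.039 for Bpifb1 at day 1. At day 7 it gave -0.38 to 0.70 for Scgb3a1, -0.090 to 0.067 for Scgb3a2, -0.29 to 0.04 for Cyp2f4 and -0.16 to 0.094 for Muc5b. At day 27 it gave -0.76 to 0.020 for Scgb3a1 and -0.0042 to 0.044 for Aldh1a1, and it gave -0.035 to 0.12 for the Scgb1a1 effect at day 27 minus day 1. The cause of these changes was not tested.

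Over all genes, edgeR called 4, 0 and 783 at days 1, 7 and 27, DESeq2 42, 18 and 1609, and all 48 libraries in 1 fit 14, 1 and 2227. Leaving out 1 library gave 0 to 17, 0 to 11 and 9 to 1926. At day 1 the ciliated covariate gave 14, no filter 2, the total count as a covariate 2, a surrogate variable 1, and close pairs summed or averaged 0. At day 27 no filter gave 474, a surrogate variable 71, close pairs summed 31 and averaged 5, and leaving out exposed libraries 3 and 7 gave 0. Of 36 gene pairs, 22 passed, 20 with 48 units and 19 without exposed libraries 3 and 7 of day 27. Low counts limit Bpifa1, with 6 to 87 counts a library in exposed lungs at day 1. No paired analysis was possible because library numbers follow accession order and pair no animals.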
